A study of Mus musculus with 37 samples.

Results

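The potassium channel genes are 92 genes whose symbol starts with Kcn, out of 19938 genes with a probe set of 1 symbol. They were found by symbol alone, on 95 of the array's 35556 probe sets, and the probe set with the highest mean stood for each gene. In all, 89 are protein coding and 3 are antisense RNAs (Kcnd3os, Kcnmb4os1 and Kcnmb4os2). A total of 65 members exceeded, in some +/+ region, the median +/+ level of all genes (7.98 on the log2 scale), and the other 27 were dimmer.

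Messenger RNA had been profiled on 37 Affymetrix arrays in 31 region samples from male F1 hybrids of C57BL/6N and 129Sv. The 2 df/+ mice carried 1 copy of the chromosome 7 interval that corresponds to human 16p11.2, the 3 +/+ mice carried 2 copies and the 3 dp/+ mice carried 3, and each lesion was heterozygous. Olfactory bulb, cortex, cerebellum and brain stem came from every mouse, except that the cortex of dp/+ mouse 3 was not analysed here. By the labels every replicate came from another animal. The age of the mice is not given in the sources used here, and 6 samples had 2 arrays, which were averaged. No gene of the Kcn series is known to lie in the interval.

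Potassium channels let potassium leave or enter a cell, set the resting potential and end the action potential. Voltage-gated pores (Kcna to Kcnd, Kcnh and Kcnq) open on depolarisation, silent subunits (Kcnf, Kcng, Kcns and Kcnv) carry no current alone and modify Kcnb channels, and calcium- or sodium-activated pores (Kcnma, Kcnn and Kcnt) follow firing. Inward rectifiers (Kcnj) and leak channels (Kcnk) hold the resting potential, in neurons and in glia. The combination of these subunits is known to set the firing pattern of each neuron type.

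Regional identity of the samples was read from marker genes. In +/+ mice, all 8 measured bulb neuron markers, all 8 cerebellar granule cell markers, 6 of 7 Purkinje cell markers, 9 of 9 brain stem neuron markers and 7 of 9 cortical excitatory neuron markers were highest in their own region. A few samples stood apart. In the brain stem of +/+ mice 1 and 2, the cortical excitatory neuron markers averaged 9.15 and 9.43, against 8.74 in +/+ mouse 3 and 8.56 to 8.99 in the other genotypes, and the choroid plexus markers averaged 8.45 and 8.97, against 7.66 to 7.87 in the rest. In the cerebellum of df/+ mouse 1 and dp/+ mouse 2, the choroid plexus markers averaged 8.08 and 8.76, against 9.49 to 10.08 in the other 6 mice. In the brain stem of dp/+ mouse 1, the granule cell markers averaged 9.93, against 8.47 to 8.87 in the other 7 mice. Median technical SD of the members between 2 arrays of 1 sample was 0.09, and their median SD between mice of 1 genotype and region was 0.14.

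Potassium channel genes differed widely between brain regions in +/+ mice. By limma's F test with the mouse as a block, 76 of 92 members (82.6%) differed between the 4 regions at an adjusted p below 0.05, where 58.0% of all genes did. The median range between the highest and lowest regional mean was 1.05 on the log2 scale, against 0.36 over all genes. All 65 brighter members passed, as did 80.1% of the 10982 genes above the median level, and 11 of the 27 dimmer members did. The filter itself keeps a gene for its highest region, so that share is no evidence of regional difference. Counts of members that differed, given here by channel class, stand against the same 58.0% of all genes. The 16 members that did not pass were Kcna7, Kcna10, Kcne1, Kcne3, Kcne4, Kcnj1, Kcnj14, Kcnj15, Kcnk5, Kcnk7, Kcnk16, Kcnk18, Kcnmb4os1, Kcnq1, Kcnu1 and Kcnv2. A region's bulk RNA cannot tell a smaller number of cells of a type from less RNA per cell, and this holds for each difference given here.

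The cerebellum was the region with the lowest mean for 37 of 92 members, where it was the lowest for 21.2% of all genes. Against the mean of the other 3 regions, 39 members were lower there (18.1% of all genes were) and 22 were higher (20.9% of all genes). With the arrays centred on their medians these counts were 41 lower and 19 higher, while the split of all genes turned from 3616 lower and 4158 higher to 4742 lower and 3001 higher. In 32 members (34.8%) the 3 cerebellar values lay below all 9 values of the other regions, which held for 8.52% of all genes. In 16 members (17.4%) they lay above all others, against 11.8% of all genes.

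In the cortex 37 members were higher (16.9% of all genes) and 21 were lower (17.8% of all genes). Centring turned the split of all genes in the cortex from 3362 higher and 3549 lower to 3735 higher and 2638 lower, and that of the members to 38 higher and 17 lower. In the olfactory bulb 30 were higher (15.3% of all genes) and 29 lower (21.2% of all genes). In the brain stem 29 were higher (15.9% of all genes) and 26 lower (14.3% of all genes). Without the brain stem of +/+ mice 1 and 2, the brain stem count of 55 became 34 (15.4% of all genes), and all 34 were among the 55. That setting leaves 1 brain stem sample, +/+ mouse 3, with the spread taken from the other regions.

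**Figure D1:**
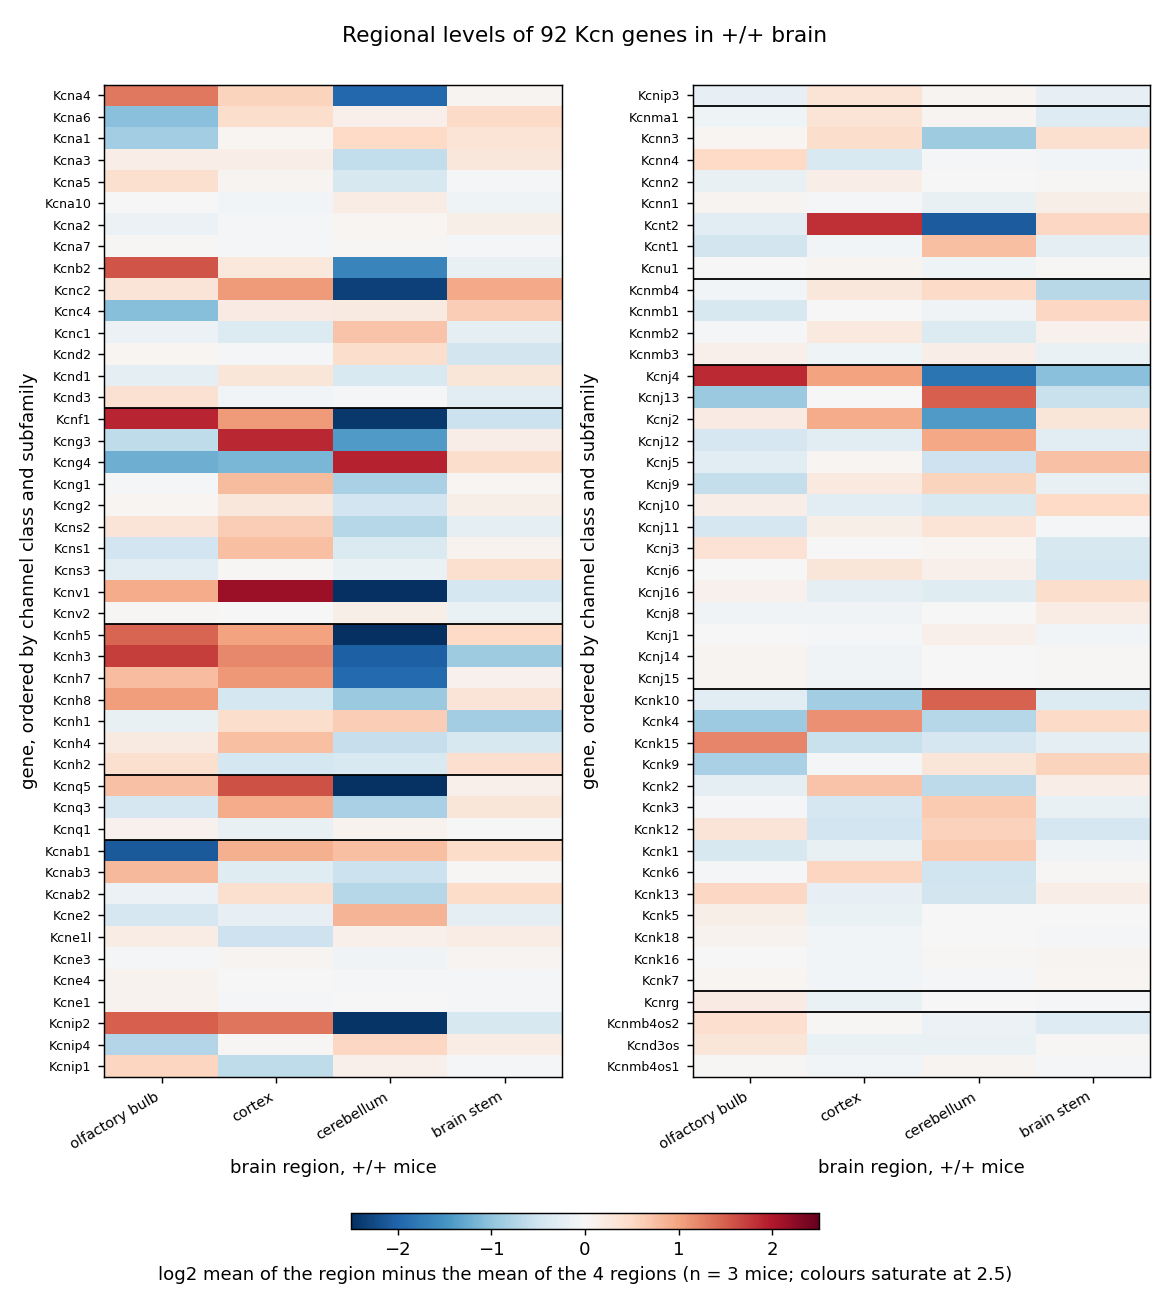
Regional mean of each of the 92 members in 3 +/+ mice, minus the mean of the 4 regions, on the log2 scale (colour), with genes as rows grouped by channel class and regions as columns. The deepest blue lies in the cerebellum column, where 37 members had their lowest mean, among them Kcnv1, Kcnh5, Kcnq5, Kcnf1 and Kcnip2, while Kcng4, Kcnj13 and Kcnk10 were highest there.

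Among the voltage-gated pores of the Kcna to Kcnd subfamilies, 13 of 15 members differed between regions. Kcna4, which forms a fast inactivating A-type channel, read 10.01, 10.12 and 9.95 in the bulb of the 3 +/+ mice, 9.31, 9.28 and 9.20 in cortex, 8.79, 8.82 and 8.71 in brain stem and 6.76, 6.86 and 6.62 in the cerebellum. None of the regions overlapped, and the bulb exceeded the mean of the other regions by 1.77 (SE 0.06, 3.41-fold). The range of the 4 means was 9.73-fold (limma F test, adjusted p = 1.18e-13). Kcnb2, a delayed rectifier, had the same order, from 10.94 ± 0.20 (SD, n = 3) in the bulb through 9.62 ± 0.15 in cortex and 9.17 ± 0.19 in brain stem to 7.72 ± 0.10 in the cerebellum, a 9.33-fold range. Cortex and brain stem were its closest neighbours, and their samples did not overlap.

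Kcnc genes, whose channels close quickly and allow fast firing, split by region. Kcnc2 read 7.11, 7.02 and 6.88 in the cerebellum, against 10.33 to 10.43 in the cortex, 10.25 to 10.32 in the brain stem and 9.39 to 9.79 in the bulb, so that only the cerebellum stood far apart (10.5-fold range). Kcnc1 was highest in the cerebellum instead, at 11.33 ± 0.10, above the other regions by 0.95. Kcnc4 was lowest in the bulb, at 7.91, 8.37 and 8.13, −1.42 from the mean of the other regions (SE 0.10), and highest in the brain stem, at 9.60, 9.75 and 10.12, an excess of 0.83 (SE 0.10). Its 3 brain stem values lay above all values elsewhere.

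Other Kcna and Kcnd members had ranges below those of Kcna4 and Kcnb2. Kcna6 was low in the bulb, at 7.85, 8.53 and 8.35, against 9.38 to 9.99 in the other regions, a difference of −1.38 (SE 0.10). Kcna1, which forms axonal channels with Kcna2, was also lowest in the bulb, at 9.59, 10.17 and 10.23, against 11.37 ± 0.05 in the cerebellum. Kcna2 itself ranged over 0.29 only (adjusted p = 0.0391). Kcnd2, the main dendritic A-type pore, stood at 12.41 ± 0.15 in the cerebellum, its highest region, against 11.51 ± 0.10 in the brain stem, its lowest, a 1.87-fold range.

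Silent subunits held some of the widest ranges. Of 10 members, 9 differed between regions, 8 were lower in the cerebellum (18.1% of all genes) and 7 were higher in the cortex (16.9% of all genes). Their median difference was −0.79 in the cerebellum, against 0.03 over all genes, and 0.91 in the cortex, against −0.05 over all genes. Kcnv1 had the largest range of all 92 members, 27.2-fold (adjusted p = 4.59e-12). It read 11.02, 11.02 and 10.81 in the cortex, 9.81, 9.83 and 9.63 in the bulb, 8.48, 8.96 and 7.70 in the brain stem and 6.50, 6.14 and 5.92 in the cerebellum. The 4 regions did not overlap, although the brain stem values spread over more than those of the other regions. The cerebellar values were close to the lower quartile of the arrays, which lay between 5.72 and 6.09, and whether they stand for transcript at all was not tested.

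Kcnf1 was highest in the bulb, at 10.33, 10.50 and 10.89, then 9.83, 9.69 and 9.64 in cortex, 7.92, 8.50 and 7.93 in brain stem and 6.42, 6.10 and 6.21 in the cerebellum. The regions did not overlap, and the bulb excess was 2.54 (SE 0.13, 5.83-fold). Kcng3 was a cortical gene, at 9.89, 9.70 and 9.69 there, against 7.86 to 8.30 in the brain stem, 6.97 to 7.45 in the bulb and 6.30 to 6.61 in the cerebellum, an excess of 2.52 (SE 0.10). Kcng4 ran the opposite way. It read 10.39, 10.23 and 10.24 in cerebellum, 8.25, 8.96 and 9.20 in brain stem, and 6.98 to 7.26 in bulb and cortex together, and its cerebellar excess of 2.57 (SE 0.13, 5.94-fold) was the largest in that region. Kcns2 was highest in the cortex (8.75 ± 0.14) and lowest in the cerebellum (7.42 ± 0.20). Kcns3 was highest in the brain stem, at 8.28 to 8.65, against 7.65 to 8.19 elsewhere.

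All 7 Kcnh genes, each above the median level of all genes, differed between regions. In the bulb 6 of them were higher (15.3% of all genes) and in the cerebellum 6 were lower (18.1% of all genes). They encode the EAG, ERG and ELK families of voltage-gated channels. Kcnh5, an EAG pore, read 11.24, 11.39 and 11.48 in the bulb, 10.90, 10.92 and 10.95 in cortex, 10.33, 10.66 and 10.27 in brain stem and 7.13, 7.08 and 6.74 in the cerebellum. Only the cerebellum was far from the rest, at a log2 difference of −3.92 (SE 0.09, 15.1-fold; adjusted p = 1.40e-14), the largest regional difference of any member. Kcnh3, an ELK pore, stood at 10.62, 11.00 and 11.20 in the bulb, 10.38 to 10.45 in cortex, 8.37, 8.94 and 7.71 in brain stem and 6.95 to 7.38 in the cerebellum. Kcnh7, an ERG pore, was highest in the cortex at 10.68 ± 0.06 and lowest in the cerebellum at 7.66 ± 0.15. Kcnh1, the other EAG pore, was the exception, with its peak of 11.17 ± 0.12 in the cerebellum. Its brain stem values of 9.58, 9.96 and 9.56 were its lowest, −1.15 from the mean of the other regions on the log2 scale (2.22-fold, SE 0.09).

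Of 3 Kcnq genes 2 differed, Kcnq3 and Kcnq5, which carry the slow M-type current of neurons, while Kcnq1, known from heart and epithelia, did not pass. Kcnq5 read 11.21, 11.19 and 11.06 in the cortex, 10.15 to 10.44 in the bulb, 9.35 to 10.09 in the brain stem and 7.12, 7.14 and 6.99 in the cerebellum (16.8-fold range). It was lower in the cerebellum than in the mean of the other regions by 9.80-fold. Kcnq3 was also highest in the cortex, at 10.80 ± 0.08, and lowest in the cerebellum, at 9.05 ± 0.14. Bulb and cerebellum did not separate clearly for Kcnq3, since the bulb stood at 9.45 ± 0.28.

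Auxiliary subunits followed no single order, and 9 of 12 differed. Kcnip2, a calcium sensor that binds Kcnd pores, read 10.35, 10.57 and 10.76 in the bulb, 10.31 to 10.49 in cortex, 8.36, 9.21 and 8.43 in brain stem and 6.73, 6.63 and 6.50 in the cerebellum, a 15.4-fold range. Bulb and cortex overlapped, and the cerebellum lay below every other value. Kcnip1 was lowest in the cortex, at 9.73 to 9.98, against 10.43 to 11.08 elsewhere. Kcnip4, in contrast, was highest in the cerebellum, at 11.76 ± 0.01. Kcnab1, the beta subunit that speeds inactivation of Kcna channels, read 8.27, 8.47 and 8.02 in the bulb, against 10.65 to 11.29 in all other samples, so that the bulb lay 6.93-fold below the mean of the other regions (SE 0.08 on the log2 scale). Kcnab3, a further beta subunit, was highest in the bulb at 11.07 ± 0.07 and lowest in the cerebellum at 9.71 ± 0.09, a 2.56-fold range. Kcnab2 was lowest in the cerebellum as well, at 10.53 ± 0.03, against 11.71 ± 0.09 in the brain stem. Kcne1l was lowest in the cortex, at 7.69 to 7.76, against 8.26 to 8.60 elsewhere.

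The promoters of the members with the widest cerebellar differences are shown to set those that were low beside those that were high. Printed are the 2 largest deficits and the 2 largest excesses among members with 1 start site in the RefSeq promoter table (GRCm38.p6), which held 70 of the 92 members, and each line gives the 200 bases before the start site. Capitals mark GGGCGG (the GC box, either strand) or CAGCTG (an E-box, the same on both strands), which do not overlap each other here.
Kcnh5, low in the cerebellum, chr12:75177333-75177532, minus strand: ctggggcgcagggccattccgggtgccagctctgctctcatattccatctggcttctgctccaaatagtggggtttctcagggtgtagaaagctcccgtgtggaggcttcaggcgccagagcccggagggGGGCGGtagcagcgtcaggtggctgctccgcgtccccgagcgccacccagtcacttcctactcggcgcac
Kcnip2, low in the cerebellum, chr19:45816064-45816263, minus strand: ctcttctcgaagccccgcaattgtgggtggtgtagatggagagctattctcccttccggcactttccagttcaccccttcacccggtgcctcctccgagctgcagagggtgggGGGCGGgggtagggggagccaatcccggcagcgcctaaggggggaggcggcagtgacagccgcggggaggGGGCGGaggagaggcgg
Kcng4, high in the cerebellum, chr8:119635681-119635880, minus strand: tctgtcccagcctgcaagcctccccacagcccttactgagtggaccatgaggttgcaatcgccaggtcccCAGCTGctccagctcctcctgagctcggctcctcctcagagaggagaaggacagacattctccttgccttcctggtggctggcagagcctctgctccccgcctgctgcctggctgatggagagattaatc
Kcnj13, high in the cerebellum, chr1:87394730-87394929, minus strand: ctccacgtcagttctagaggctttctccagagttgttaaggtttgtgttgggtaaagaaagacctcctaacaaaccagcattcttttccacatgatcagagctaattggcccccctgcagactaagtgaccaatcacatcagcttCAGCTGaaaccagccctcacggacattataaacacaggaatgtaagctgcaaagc
The windows of Kcnh5 and Kcnip2 held 1 and 2 GC boxes, 13 CpG dinucleotides each and 65.0% and 68.0% G or C. Those of Kcng4 and Kcnj13 held no GC box, 1 E-box each, 3 and 2 CpG dinucleotides and 61.0% and 46.0% G or C. Kcnj13 alone of the 4 held TATAAA. Of all 32851 promoters listed, 31% held a GC box, 10.9% this E-box and 9.96% TATAAA on either strand, and among the 95 promoters of 70 members 44.2%, 17.9% and 3.16% did. TGACGTCA, the full CRE, was in 1.47% of all promoters and in none of the 95. These are matches of letters in 4 chosen windows, and no binding was measured.

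Kcnt2, a sodium-activated pore that opens as sodium enters during firing, was a cortical gene. It read 9.96, 10.05 and 9.73 in cortex, 8.64, 8.95 and 8.22 in brain stem, 7.71, 7.76 and 8.03 in the bulb and 6.26, 5.86 and 5.92 in the cerebellum, with no overlap (14.9-fold range). The cerebellar values were near the arrays' lower quartile of 5.72 to 6.09, and whether they stand for transcript was not tested, so the fold depends on values at the array's low end. Its paralogue Kcnt1 was highest in the cerebellum, at 11.09, 10.90 and 10.96, against 9.61 to 10.22 elsewhere, an excess of 1.00 (SE 0.09). Of the 8 calcium- or sodium-activated pores 7 differed. Kcnn3, a small-conductance calcium-activated pore, was lowest in the cerebellum at 8.50 ± 0.18 and stood at 9.43 to 9.82 as means elsewhere.

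Kcnma1, the pore of the large-conductance BK channel, ranged over 0.67 only, and its 2 probe sets disagreed. The brighter one, used here, was highest in the cortex at 11.48, and the dim one was highest in the cerebellum at 6.58, against 4.69 to 4.98 elsewhere. Kcna2 and Kcnh8 also had 2 probe sets, which gave the same highest and lowest regions. Of the BK beta subunits all 4 differed. Kcnmb4, the main neuronal one, read 9.08, 9.22 and 9.08 in the cerebellum, 8.78 to 9.12 in the cortex, 8.44 to 8.74 in the bulb and 7.72 to 8.16 in the brain stem, where it was lower by 1.89-fold (log2 difference −0.92, SE 0.09). Kcnmb1 was highest in the brain stem, at 7.61, 7.31 and 7.35, against 6.49 to 7.20 elsewhere.

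Inward rectifiers divided between neuronal, glial and epithelial genes, and 12 of 15 differed. Kcnj4, a strong rectifier of forebrain neurons, read 10.24, 10.64 and 10.51 in the bulb, 9.73, 9.68 and 9.39 in cortex, 7.58, 8.20 and 6.91 in brain stem and 6.90, 6.77 and 6.67 in the cerebellum, a 12.9-fold range. Its brain stem values nearly reached down to those of the cerebellum in +/+ mouse 3. Kcnj2, of the same strong group, was highest in the cortex at 8.37 ± 0.17 and lowest in the cerebellum at 6.03 ± 0.05, again near the lower quartile. Kcnj12, another strong rectifier, was highest in the cerebellum, at 9.04, 9.07 and 9.04, against 7.47 to 7.92 in all other samples (2.43-fold over the mean of the other regions).

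The G protein-gated rectifiers had different highest regions. Kcnj9 was highest in the cerebellum at 9.61 ± 0.03, Kcnj3 in the bulb at 11.52 ± 0.16 and Kcnj6 in the cortex at 8.82 ± 0.13. Kcnj5 was highest in the brain stem, at 7.50, 7.23 and 7.53, against 6.12 to 6.76 in the other regions, an excess of 0.96 (SE 0.07, 1.95-fold). The glial pair Kcnj10 and Kcnj16 shared an order. Kcnj10, which clears potassium in astrocytes, stood at 11.65, 11.89 and 11.92 in the brain stem, 11.32 to 11.64 in the bulb, 10.99 to 11.09 in the cortex and 10.92 to 10.99 in the cerebellum. Kcnj16, its partner subunit, stood at 9.78, 10.07 and 10.17 in the brain stem, against 9.22 to 9.72 elsewhere. Beside this, the 9 astrocyte markers averaged 11.54 to 11.59 in the brain stem, 11.57 to 11.58 in the cerebellum, 11.26 to 11.35 in the bulb and 11.05 to 11.19 in the cortex, so that the low cerebellar values of both genes went with high astrocyte markers. Without the brain stem of +/+ mice 1 and 2, which leaves 1 brain stem sample, the excesses were 0.76 and 0.75.

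Kcnj13 and Kcne2 are known from the choroid plexus, the epithelium that secretes cerebrospinal fluid. Kcnj13 read 11.52, 11.47 and 11.41 in the cerebellum, 10.17, 10.04 and 9.67 in cortex, 9.54, 10.04 and 8.69 in brain stem and 9.26, 8.90 and 8.99 in the bulb. The cerebellum stood above the rest, while cortex and brain stem overlapped. Kcne2 read 7.25, 7.42 and 7.70 in the cerebellum, against 6.08 to 6.54 in all other samples. The 7 measured choroid plexus markers averaged 9.69, 9.82 and 10.08 in the cerebellum, 8.51 to 8.66 in the cortex, 7.66 to 8.97 in the brain stem and 6.89 to 7.08 in the bulb, by their means the same order of regions as for Kcnj13. The part of the plexus in the regional values of these genes was not tested.

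Of the leak channels 10 of 14 differed. In the cerebellum 5 were higher (20.9% of all genes) and 5 lower (18.1% of all genes). In the cortex 3 were higher (16.9% of all genes) and 7 lower (17.8% of all genes). Kcnk10, a mechanosensitive leak pore, read 10.81, 10.68 and 10.56 in the cerebellum, 8.92 to 8.99 in the bulb, 8.81 to 8.98 in the brain stem and 8.32 to 8.40 in the cortex. Bulb and brain stem overlapped, the cerebellum was 3.87-fold above the mean of the other regions (SE 0.07 on the log2 scale) and the cortex was 2.23-fold below. Kcnk4, of the same mechanosensitive group, was highest in the cortex instead, at 9.45, 9.50 and 9.47, against 8.76 to 8.85 in the brain stem, 7.41 to 7.84 in the cerebellum and 7.37 to 7.49 in the bulb. The acid-sensitive pores also differed. Kcnk3 was highest in the cerebellum at 10.03 ± 0.09, and Kcnk9 was highest in the brain stem at 10.73 ± 0.22 and lowest in the bulb at 9.36 ± 0.16, with brain stem and cerebellum (10.48 ± 0.21) within their spread. Kcnk15 was highest in the bulb at 9.29 ± 0.40, against means of 7.50 to 7.82 elsewhere.

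Kcnrg, a regulator, ranged over 0.38 (adjusted p = 0.0340). Kcnu1, the sperm channel gene, ranged over 0.17 (adjusted p = 0.233). Kcnmb4os2, the antisense RNA of Kcnmb4, was highest in the bulb at 7.64 ± 0.19 and lowest in the brain stem at 6.90 ± 0.35, a 1.67-fold range.

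**Figure D2:**
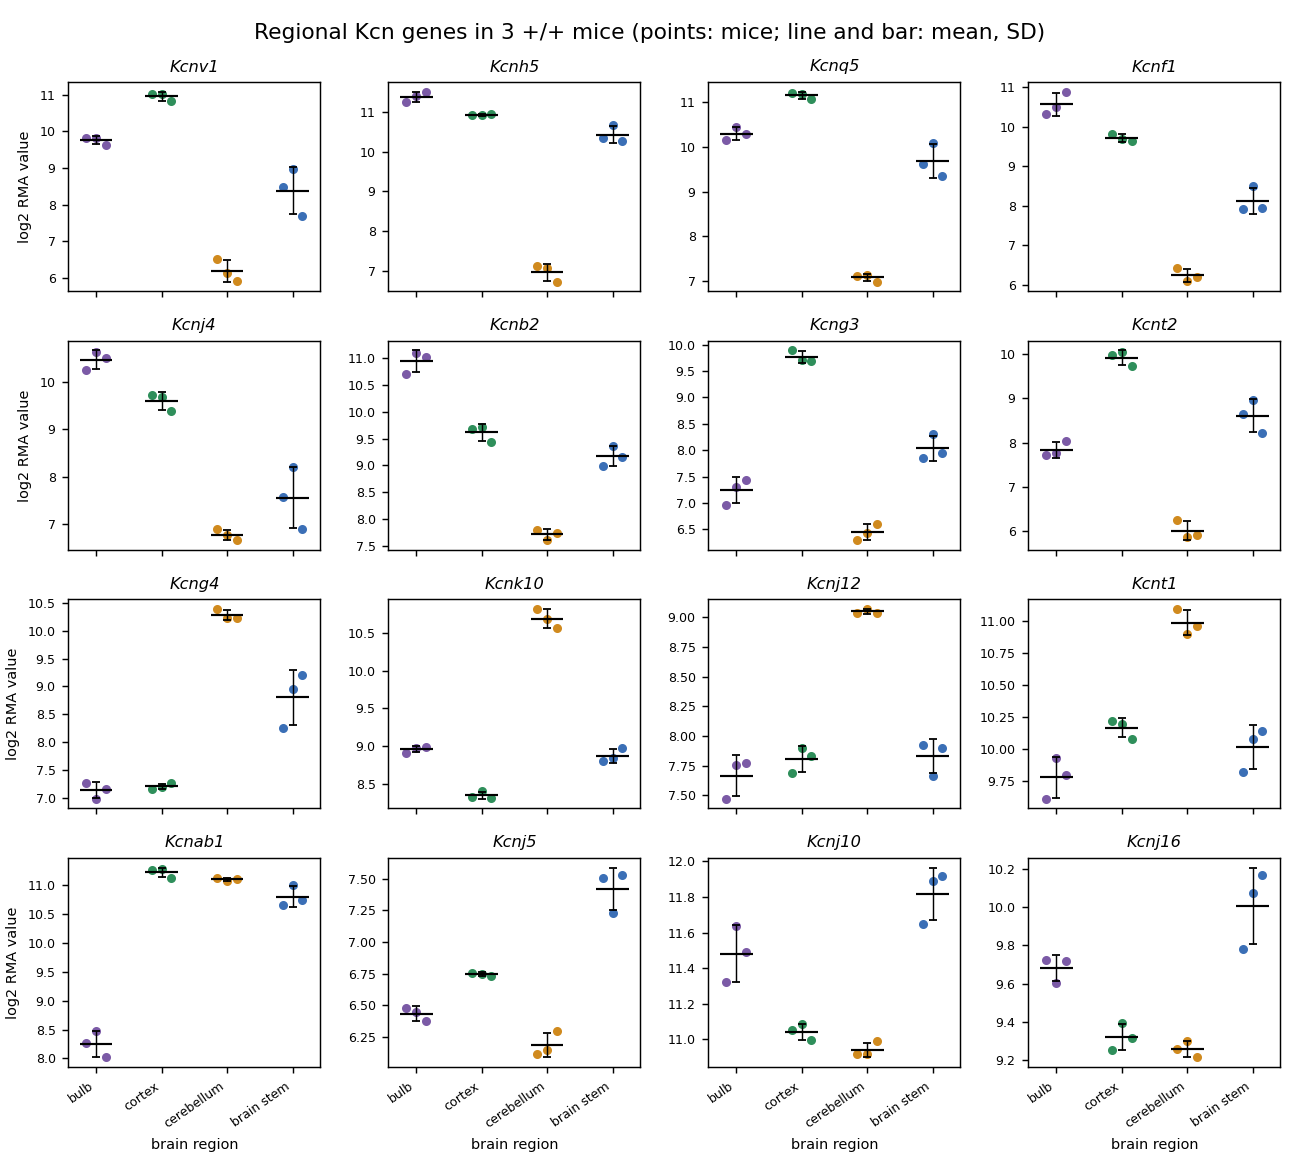
Log2 RMA values of 16 members in each of 3 +/+ mice (points) by brain region, with the mean (line) and SD (bar); each panel has its own axis. Kcnv1, Kcnh5, Kcnq5 and Kcnf1 fell lowest in the cerebellum, Kcng4, Kcnk10, Kcnj12 and Kcnt1 were highest there, Kcnab1 was low in the bulb, and Kcnj5, Kcnj10 and Kcnj16 were highest in the brain stem.

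Partners of the channels whose symbols do not start with Kcn were tested as well. Of a list of 36 partner genes 33 were measured and 31 differed between regions, where 58.0% of all genes did. Of the 33, 28 were above the median level of all genes, where 80.1% of genes differed. The 4 with the smallest p were Lrrc55, Cnih3, Akap5 and Abcc8. Lrrc55, a BK gamma subunit, was highest in the bulb at 11.04 ± 0.14 and lowest in the cerebellum at 6.99 ± 0.03. Cnih3, an auxiliary protein of glutamate receptors, was lowest in the cerebellum at 7.08 ± 0.12, against 9.29 to 10.31 as means elsewhere. Akap5, a scaffold protein near Kcnq channels, was highest in the cortex at 10.85 ± 0.08. Abcc8, the partner of Kcnj11 in ATP-sensitive channels, was highest in the cerebellum at 9.95 ± 0.13, as Kcnj11 was at 8.77 ± 0.14.

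Copy number of the interval moved no member across the brain past the threshold. With 1 value per mouse (its mean over regions after subtracting the +/+ mean of each region), the slope on log2 copies lay between −0.16 and 0.16 for all 92 members, where a slope of 1 would be proportional to copy number, and the median was 0.01, as it was over all genes. By limma 0 members were called (0.110% of all genes were), with 7 at an unadjusted p below 0.05 (7.61%, against 6.87% of all genes). The 95% interval of the slope reached, at the median, 0.10 to either side, so slopes of that size could not be told from 0. The 3 members with the smallest p were Kcna6, Kcng3 and Kcns1, at −0.16, 0.13 and 0.09 (adjusted p = 0.697 each). Kcna6 stood at 0.11 and 0.22 in df/+ mice, −0.18, 0.10 and 0.09 in +/+ mice and −0.12, −0.12 and −0.02 in dp/+ mice, so that the dp/+ values lay within the range of +/+. Of the partner list, Lgi2 and Pex5l had the smallest p of the slope, at −0.19 (SE 0.05, adjusted p = 0.664) and −0.17 (SE 0.05, adjusted p = 0.697). In some comparison of genotypes 2 of the 33 partners were called (6.06%, against 8.39% of all genes and 9.78% of the 92 members). They were Dlg2, a scaffold protein, in the dp/+ bulb (0.36, adjusted p = 0.0359), and Lrrc26, a BK gamma subunit, in the dp/+ cerebellum (0.43, adjusted p = 0.0327).

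Neither lesion alone gave a call across the brain. For df/+ against +/+, limma called 0 members (0.115% of all genes), with 5 at an unadjusted p below 0.05 (5.43%, against 6.75% of all genes). Kcnj13, Kcnv1 and Kcnf1 had the smallest p, at −0.66, −0.38 and −0.21 (adjusted p = 0.529, 0.545 and 0.629). Kcnj13 stood at −1.07 and −0.24 in df/+ mice and at 0.15, 0.14 and −0.29 in +/+ mice, so that the groups overlapped. For dp/+ against +/+, it called 0 members (1.86% of all genes), with 21 at an unadjusted p below 0.05 (22.8%, against 23.7% of all genes). Kcna4 came nearest, at −0.17, −0.28 and −0.29 in dp/+ mice, against 0.01, 0.07 and −0.08 in +/+ mice, a difference of −0.24 (SE 0.06, adjusted p = 0.0549), and the groups did not overlap. Kcna10 followed at 0.26 (adjusted p = 0.0667) and Kcnj16 at −0.20 (adjusted p = 0.104). Both lesions were compared with the same 3 +/+ mice, and dp/+ mouse 3 entered with 3 regions.

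Within regions, no member had a called slope in the olfactory bulb (0.246% of all genes), the cortex (0.0953%), the cerebellum (0.115%) or the brain stem (0.120%) by limma. At an unadjusted p below 0.05 there were 4, 8, 1 and 0 members. These are 4.35%, 8.7%, 1.09% and 0%, against 6.04%, 5.45%, 4.09% and 2.32% of all genes. Slopes that differed between regions were called for 0 members (0.0502% of all genes), with 4 at an unadjusted p below 0.05 (Kcns1, Kcnk2 and Kcns2 had the smallest). The share of all genes at that unadjusted p is not given here for this test. The smallest p of any regional slope was that of Kcns1 in the cortex, a silent subunit. It read 7.72 and 7.67 in df/+, 7.84, 7.99 and 8.01 in +/+ and 8.07 and 8.19 in dp/+ mice, without overlap, and its slope was 0.27 (SE 0.07, adjusted p = 0.428). In the other regions the smallest p belonged to Kcnk5 in the bulb (slope 0.21, adjusted p = 0.596), Kcnj9 in the cerebellum (−0.19, adjusted p = 0.999) and Kcnf1 in the brain stem (0.27, adjusted p = 1.00).

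In the dp/+ cerebellum 5 members were called, Kcna4 and Kcnab3 lower and Kcng1, Kcnk15 and Kcnmb4os2 higher. This is 5.43% of the members, near the 5.54% of all genes called in that comparison, which split into 456 higher and 649 lower, or 181 higher and 161 lower after quantile normalisation within regions. Kcna4 read 6.76, 6.86 and 6.62 in +/+ and 6.24, 6.03 and 6.11 in dp/+ mice, and 6.45 and 6.30 in df/+ mice. Both lesions lay below every +/+ value. The dp/+ difference was −0.62 (SE 0.09, 65.2% of the +/+ level; limma adjusted p = 0.00147), and that of df/+ was −0.37 (SE 0.10, adjusted p = 0.212), against the same +/+ mice. Kcna4 is at its regional low in the cerebellum, so the change was measured near the bottom of its range. Its dp/+ values lay near the arrays' lower quartile of 5.72 to 6.09, and whether they stand for transcript was not tested. The 2 arrays of 1 sample read 6.10 and 6.38 in dp/+ mouse 1 and 6.58 and 6.31 in df/+ mouse 1. In +/+ mouse 3 they read 6.70 and 6.54. Over all settings run, the dp/+ difference of Kcna4 stayed between −0.74 and −0.55 and called.

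The other 4 calls were less firm. Kcng1, a silent subunit, read 8.08, 7.88 and 8.06 in +/+, 8.37, 8.42 and 8.55 in dp/+ and 8.24 and 8.52 in df/+ mice, a dp/+ difference of 0.43 (SE 0.09, adjusted p = 0.0170). Kcnmb4os2 read 6.97, 7.01 and 7.23 in +/+, 7.60, 7.53 and 7.78 in dp/+ and 7.43 and 7.50 in df/+ mice, a dp/+ difference of 0.56 (SE 0.14, adjusted p = 0.0257). For both genes every mouse with a lesion lay above every +/+ mouse. Kcnk15, of the acid-sensitive leak group, read 7.81, 7.44 and 7.68 in +/+ and 8.10, 8.14 and 8.28 in dp/+ mice, a difference of 0.53 (SE 0.15, adjusted p = 0.0344). Kcnab3, a beta subunit of Kcna channels, read 9.82, 9.66 and 9.65 in +/+ and 9.26, 9.58 and 9.18 in dp/+ mice, a difference of −0.37 (SE 0.11, adjusted p = 0.0411), with df/+ mice at 9.80 and 9.48. The Kcnab3 call was lost with the first array of each sample (adjusted p = 0.0627), with cyclic loess (0.108) and with quantile normalisation within regions (0.165, difference −0.24). Kcnk15 lost its call with the first arrays (0.0644) and Kcnmb4os2 with cyclic loess (0.0521). The count of 5 became 1 when +/+ mouse 2 was left out (0.0301% of all genes), 1 when dp/+ mouse 1 was (0.0853%), and 2 when dp/+ mouse 3 was (7.02%). Without the cerebellum of df/+ mouse 1 and dp/+ mouse 2, whose choroid plexus markers were low, it became 9, with all 5 among them, while the share of all genes rose to 7.37%.

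Kcnj13 in the cerebellum was low in the same samples as the choroid plexus markers. It read 8.96 in df/+ mouse 1 and 9.77 in dp/+ mouse 2, against 10.96 to 11.52 in the other 6 mice. Kcne2 stood at 6.27 and 6.68 in the same samples, against 7.25 to 7.70. Ttr, which encodes the plexus protein transthyretin and is named for this comparison after its values were seen, stood at 11.17 and 12.68, against 13.37 to 13.63. On the 2 arrays of the df/+ mouse 1 sample Kcnj13 read 9.11 and 8.80. The df/+ difference of Kcnj13 was −1.37 (SE 0.44, adjusted p = 0.376), −2.51 (adjusted p = 0.00652) without df/+ mouse 2, and −0.27 and not called without the low samples. Each of these settings leaves 1 df/+ sample, mouse 1 or mouse 2, and takes the spread from the other groups. The mean of the plexus list ran from 8.08 to 9.66 in df/+, 9.69 to 10.08 in +/+ and 8.76 to 9.69 in dp/+ mice (7 of 8 markers measured), and its part in the difference was not tested. In df/+ against +/+ limma called 0 members (0.0702% of all genes) in the cerebellum, with 7 at an unadjusted p below 0.05 (7.61%, against 8.78% of all genes).

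**Figure D3:**
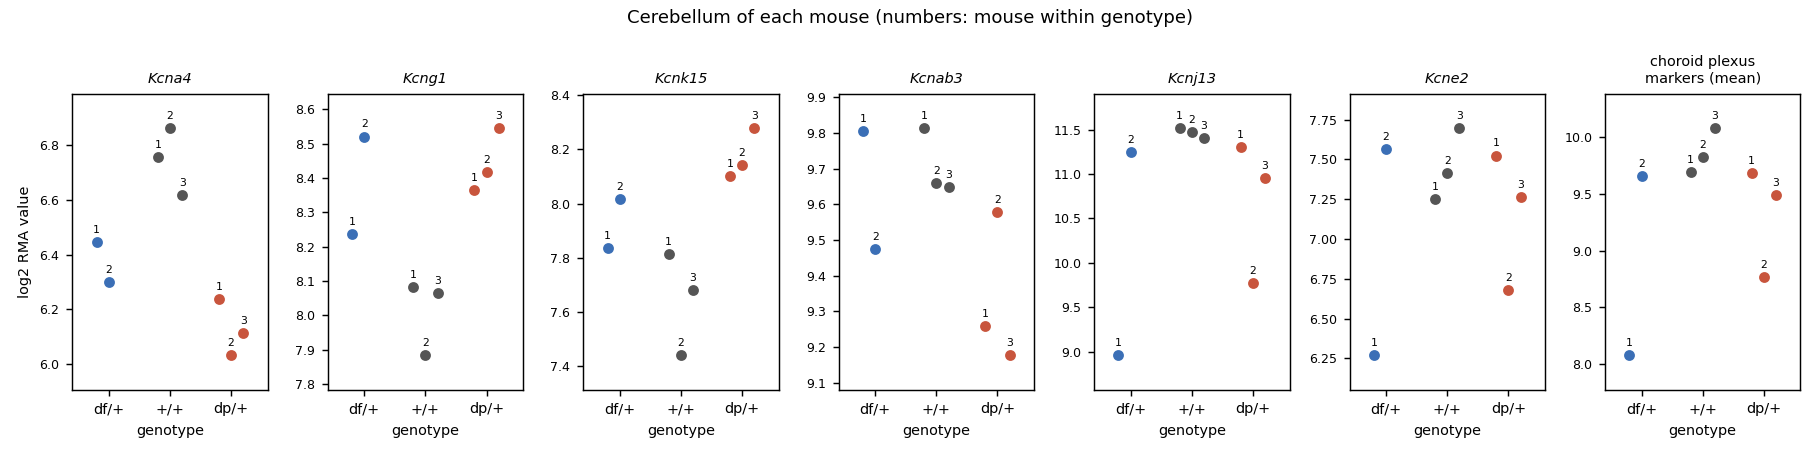
Log2 RMA values of 6 members and the mean of 7 choroid plexus markers in the cerebellum of each mouse (points, with the number of the mouse), by genotype; each panel has its own axis. All dp/+ values of Kcna4 lie below and all dp/+ values of Kcng1 and Kcnk15 above those of +/+, while df/+ mouse 1 and dp/+ mouse 2 are lowest for Kcnj13, Kcne2 and the plexus markers.

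In the df/+ brain stem 4 members were lower than in +/+: Kcnv1, Kcnmb4, Kcnf1 and Kcnh3. This is 4.35% of the members, against 0.211% of all genes, and 16 members had an unadjusted p below 0.05 (17.4%, against 4.17% of all genes). Kcnv1 read 8.48, 8.96 and 7.70 in +/+ and 7.09 and 7.46 in df/+ mice, a difference of −1.10 (SE 0.20, 46.6% of the +/+ level; limma adjusted p = 0.00981). Kcnmb4 read 7.72 to 8.16 in the 3 +/+ and 7.41 and 7.03 in df/+ mice, a difference of −0.74 (SE 0.14, adjusted p = 0.0102). Kcnf1 read 7.92, 8.50 and 7.93 in +/+ and 7.54 and 7.03 in df/+ mice, a difference of −0.83 (SE 0.17, adjusted p = 0.0231). Kcnh3 read 8.37, 8.94 and 7.71 in +/+ and 7.26 and 7.29 in df/+ mice, a difference of −1.07 (SE 0.23, adjusted p = 0.0412). In each gene the groups did not overlap, and +/+ mouse 2 was the highest sample. The Kcnh3 call was lost with cyclic loess (adjusted p = 0.0653), quantile normalisation within regions (0.0505), the trended robust prior (0.0863) and every probe set (0.051).

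The same +/+ samples were high in cortical and choroid plexus markers. The 9 measured cortical excitatory neuron markers averaged 8.74 to 9.43 in +/+, 8.56 to 8.63 in df/+ and 8.57 to 8.99 in dp/+ brain stem. Neurod6, a cortical transcription factor, read 7.59 and 8.50 in +/+ mice 1 and 2, 5.99 in +/+ mouse 3, 5.44 and 5.81 in df/+ mice and 7.12, 5.54 and 6.20 in dp/+ mice, against 9.19 to 9.82 in the cortex. Tbr1, another, read 8.49, 9.08 and 6.45 in +/+ and 5.79 and 5.83 in df/+ mice, and both are named after their values were seen. Slc17a7 and Neurod2 were also higher in +/+ mice 1 and 2 than in +/+ mouse 3 and the df/+ mice. Emx1, Cux2, Rorb, Foxp2 and Rasgrf2 of the same list were not. Cux2 read 8.66 and 8.76 in +/+ mice 1 and 2, 8.91 in +/+ mouse 3 and 9.04 and 8.81 in df/+ mice. Kcnv1, Kcnh3 and Kcnf1 had their own regional highs in cortex or bulb. Kcnmb4 had its high in the cerebellum, with the cortex next, and its low in the brain stem. All 4 genes were higher in every +/+ cortex sample than in any +/+ brain stem sample. Without the brain stem of +/+ mice 1 and 2, the +/+ group is 1 sample, mouse 3, the lowest of the 3 in Kcnv1, Kcnmb4 and Kcnh3, and the spread comes from the other groups. The differences were then −0.46 for Kcnv1, −0.51 for Kcnmb4, −0.63 for Kcnf1 and −0.43 for Kcnh3 (adjusted p = 1.00 each). The part of the cortical markers in the 4 calls was not tested. Leaving out 1 mouse gave 1 call without +/+ mouse 1 (0.135% of all genes), 0 without +/+ mouse 2 (0.0602%) and 7 without +/+ mouse 3 (0.522%). Without dp/+ mouse 1, 2 or 3 it gave 3, 2 and 3 calls (0.181%, 0.176% and 0.196%). Leaving out a df/+ mouse leaves 1 df/+ sample. The 4 calls were not kept without df/+ mouse 2, at −1.28 for Kcnv1, −0.55 for Kcnmb4, −0.58 for Kcnf1 and −1.08 for Kcnh3. Those of Kcnv1 and Kcnh3 were not kept without df/+ mouse 1, at −0.92 and −1.05.

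The dp/+ brain stem, compared with the same +/+ samples, gave 0 calls by limma (0.0150% of all genes), with 14 members at an unadjusted p below 0.05 (15.2%, against 3.56% of all genes). Kcnv1 read 7.55, 7.12 and 7.50 in dp/+ mice, a difference of −0.99 (SE 0.18, adjusted p = 0.0516). Kcnh3 and Kcnmb4 followed at −0.77 and −0.46 (adjusted p = 0.593 each). Without the brain stem of +/+ mice 1 and 2 these were −0.34, −0.14 and −0.23 (adjusted p = 1.00 each), again against 1 +/+ sample.

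**Figure D4:**
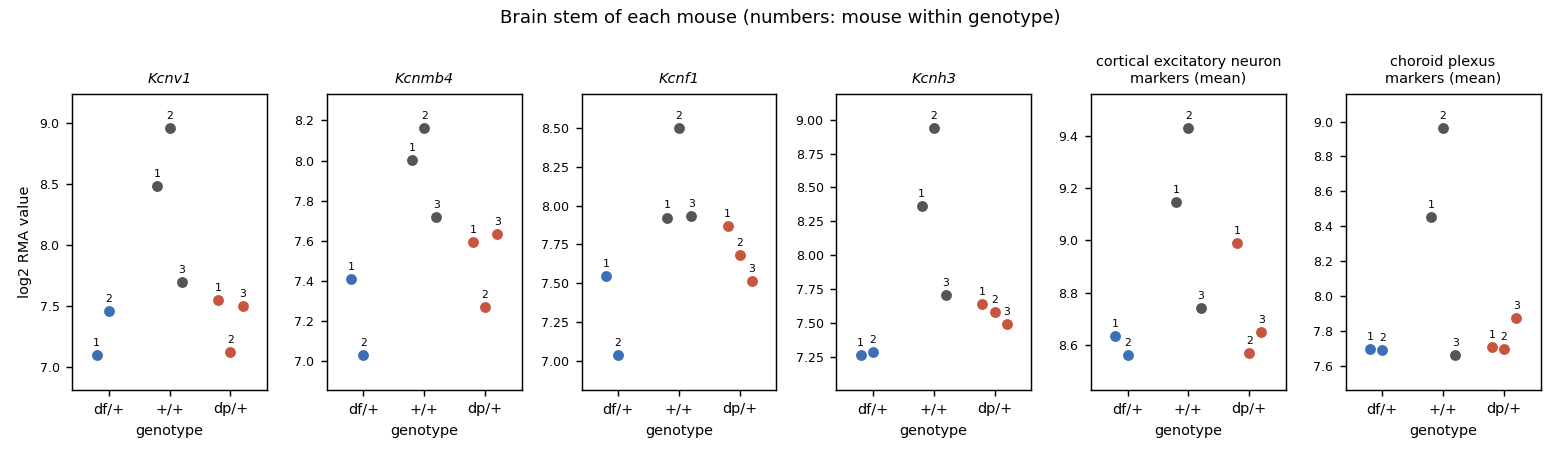
Log2 RMA values of the 4 members called in the df/+ brain stem, and the means of 9 cortical excitatory neuron and 7 choroid plexus markers, in the brain stem of each mouse (points, with the number of the mouse), by genotype; each panel has its own axis. In all 6 panels +/+ mouse 2 is the highest sample, and the df/+ values of the 4 members lie below all +/+ values.

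Bulb and cortex gave no call. In the olfactory bulb limma called 0 members for df/+ (0.291% of all genes) and 0 for dp/+ (2.27% of all genes). In each, 12 members had an unadjusted p below 0.05 (13%, against 10.7% of all genes for df/+ and 17.9% for dp/+). The antisense RNA Kcnmb4os2 had the smallest p in both. It read 7.85, 7.60 and 7.48 in +/+, 7.11 and 7.16 in df/+ and 7.14, 7.11 and 7.18 in dp/+ mice, so that every lesion value lay below every +/+ value, with differences of −0.50 in both (adjusted p = 0.187 and 0.0535). In these bulbs the mean of 6 olfactory sensory neuron markers was also below every +/+ value in both lesions, at 9.55 to 9.77 in +/+, 9.16 to 9.47 in df/+ and 9.17 to 9.37 in dp/+ mice. Microglia markers were lower in both lesions as well (8.58 to 8.76 in +/+, 8.48 to 8.51 in df/+, 8.40 to 8.53 in dp/+). Oligodendrocyte markers were lower in dp/+ (9.82 to 10.15 in +/+, 9.52 to 9.74 in dp/+) and overlapped +/+ in df/+. In dp/+ the means of the bulb neuron, Purkinje cell and parvalbumin interneuron lists also lay below every +/+ value, and that of the endothelium list lay above. The part of these markers in the bulb differences was not tested. Kcnip3, a calcium sensor of Kcnd channels, read 11.49, 11.49 and 11.53 in +/+ and 11.32, 11.28 and 10.91 in dp/+ bulbs, a difference of −0.33 (SE 0.10, adjusted p = 0.0584). Kcne1l followed at −0.32 (SE 0.09, adjusted p = 0.0584). For df/+, Kcnk9 and Kcna1 followed at 0.45 and 0.36 (adjusted p = 0.213 and 0.248).

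In the cortex limma called 0 members for df/+ (0.100% of all genes) and 0 for dp/+, where no gene of the array passed (0%). At an unadjusted p below 0.05 were 9 and 17 members (9.78% and 18.5%, against 6.01% and 15.8% of all genes). Kcnmb4os2 again had the smallest p for df/+, now higher, at 7.62 and 7.78 against 7.24 ± 0.23 (SD, n = 3) in +/+ mice, whose highest value was 7.45, a difference of 0.46 (SE 0.16, adjusted p = 0.574). Kcnn2, a small-conductance calcium-activated pore, followed at −0.36 (adjusted p = 0.590), and Kcns1 at −0.25 (adjusted p = 0.666). For dp/+, Kcna10, Kcnj1 and Kcnn4 had the smallest p, at 0.43, 0.38 and 0.38 (adjusted p = 0.145, 0.153 and 0.162). Kcnj1 read 5.90 and 5.88 in dp/+ and 5.46, 5.53 and 5.51 in +/+ cortex, below the arrays' lower quartile of 5.72 to 6.09 in +/+.

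The lesion differences of some members changed with the region. An F test that the dp/+ differences are equal in the 4 regions, added after the data were seen, called 2 members (0.211% of all genes), Kcna4 (adjusted p = 0.0198) and Kcnmb4os2 (adjusted p = 0.0263), with 26 at an unadjusted p below 0.05. Kcna4 in dp/+ mice read 10.24, 10.03 and 10.04 in the bulb, against 10.01, 10.12 and 9.95 in +/+, where the groups overlapped. In the cortex it read 9.12 and 9.23 against 9.31, 9.28 and 9.20, and in the brain stem 8.55, 8.39 and 8.54 against 8.79, 8.82 and 8.71, a brain stem difference of −0.28 (SE 0.09, adjusted p = 0.790). Its cerebellar difference of −0.62 was thus the largest of the 4. Kcnmb4os2 differed from +/+ by −0.50 in the dp/+ bulb and by 0.56 in the dp/+ cerebellum, and read 7.58 and 7.53 in the dp/+ cortex. Both calls were lost without +/+ mouse 1, +/+ mouse 2, dp/+ mouse 1 or dp/+ mouse 2 (0 called each) and without the mouse as a block (adjusted p = 0.0615 for Kcna4 and 0.0732 for Kcnmb4os2), and 7 were made without +/+ mouse 3 (0.597% of all genes). The same test of the df/+ differences called 0 members (0.0602% of all genes), with 20 at an unadjusted p below 0.05. Kcnmb4 (adjusted p = 0.0589), Kcnmb4os2 (0.0899) and Kcnh3 (0.149) had the smallest p there. For the dp/+ and df/+ tests the share of all genes at that unadjusted p is not given here.

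**Figure D5:**
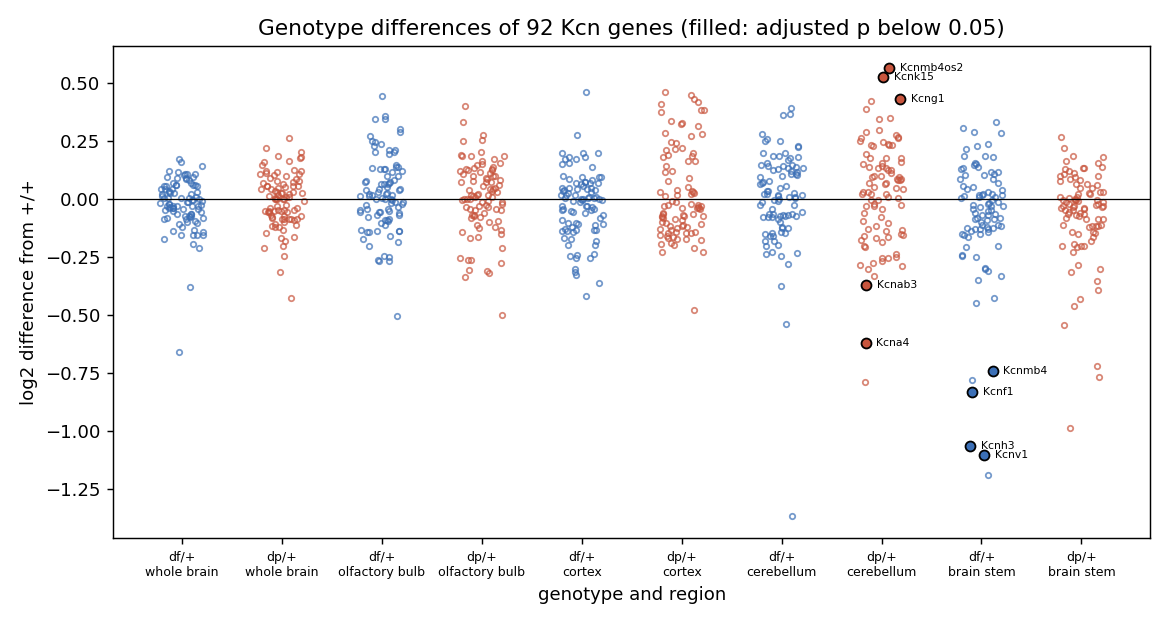
Log2 difference of each of the 92 members from +/+ in df/+ (blue) and dp/+ (red) mice, across the whole brain and in each region (points; jittered along the x axis), with filled and named points for an adjusted p below 0.05. Only the dp/+ cerebellum, with 5 members, and the df/+ brain stem, with 4, hold filled points.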

How the data were processed

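Per probe set the authors deposited 1 log2 RMA value (RMA and Expression Console are named in the submitters' processing notes); base 2 was read from the range of the values. Library files, batches and hybridisation dates are not given in the sources used here. Probe sets were named from the platform's table: 21789 have 1 symbol, 1621 several and 12146 none, and the brightest probe set stood for each of 19938 genes. Every column of the table was used. On arrays the number of samples limits the precision.

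With limma 3.58.1 in R 4.3.3 (lmFit and eBayes), regions were compared in 12 +/+ samples with the mouse as a fixed block, genotypes across the brain with 1 value per mouse, and genotypes within regions in 31 samples, where the mouse was a random block (duplicateCorrelation; consensus 0.15 for slopes and 0.12 for contrasts). Benjamini-Hochberg adjustment covered all 19938 genes, and calls had an adjusted p below 0.05. For the comparison of regions, the p values rest on the spread left in the 12 samples once the mouse block is taken out. Within regions they rest on a spread pooled over the 31 samples, not on that of 1 region. Only the p values across the brain, with 1 value per mouse, measure the spread between mice. The procedure was tested on simulated data.

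The members and lists were chosen with earlier results of these data known. Members were named as up to 6 with the largest excess and up to 3 with the largest deficit per region, among called members whose samples did not overlap the other regions, the widest range per subfamily, every member called between genotypes, or else the 3 with the smallest p, and of the partners the 4 with the smallest regional and the 2 with the smallest slope p. Members given beyond this rule, as by their role, were chosen after their values were seen.

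Alternative settings used 1 array per sample (the first), every probe set, brighter genes only, median centring, cyclic loess with 3 iterations, quantile normalisation within regions, a trended robust prior, a slope on the copies themselves, no block for the mouse, the replicate number as a block and each mouse left out. The 2 settings without samples that stood apart in markers, and the F tests of contrasts between regions, were added after the data were seen. Over 7 pairs of same-numbered mice of different genotypes, the correlation of deviations ran from −0.382 to 0.173, with 2 above 0.1. The deviations were taken from each genotype's own mean, so those of the 2 df/+ mice mirror each other. These correlations cannot decide whether the numbers pair the samples.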

Additional observations from a re-analysis of the deposited data

Results flagged for a closer look

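The dp/+ difference of Kcna4 differed between the 4 regions (limma F test, adjusted p = 0.0198 over all genes). It was −0.62 in the cerebellum, where all 3 dp/+ mice lay below all 3 +/+ mice, and −0.28 in the brain stem, where all 3 did too. In the bulb the groups overlapped.

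The dp/+ difference of the antisense RNA Kcnmb4os2 differed between regions as well (adjusted p = 0.0263). It was −0.50 in the bulb and 0.56 in the cerebellum, and in both regions the 3 dp/+ mice did not overlap the 3 +/+ mice. Both tests were added after the data were seen, and neither passed the threshold without +/+ mouse 1, +/+ mouse 2, dp/+ mouse 1 or dp/+ mouse 2, or without the mouse as a block (adjusted p = 0.0615 and 0.0732). No weighing of explanations was made.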

How the results depend on the processing

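No direction of a called result reversed in any setting run. Of the named values in comparisons of genotypes, 966 settings left the call as it was, 55 lost it and 33 gained it, and of the regional ones 624 left it, 5 lost it and 2 gained it. No scaling moved the median of all genes by over 0.1.

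Counts of called members that moved by over 1.5 times were these. Without the brain stem of +/+ mice 1 and 2, which leaves 1 +/+ brain stem sample with the spread taken from the others, the brain stem count among regions became 34, that of df/+ in the brain stem 0, that of dp/+ across the brain 3 and that of dp/+ in the bulb 2. In that setting 4.43% of all genes were called for dp/+ across the brain and 2.27% for dp/+ in the bulb. Without the low plexus samples the dp/+ cerebellum count became 9 (7.37% of all genes). With the trended robust prior the slope across the brain called 1 (0.522% of all genes) and dp/+ in the bulb 1 (2.29%). With the first array of each sample dp/+ called 1 across the brain (2.5%) and 1 in the bulb (2.56%). The first arrays also gave 3 for dp/+ in the cerebellum (2.35%). Cyclic loess gave 2 for dp/+ in the bulb (2.37%) and 3 in the cerebellum (1.63%). Quantile normalisation within regions gave 1 for dp/+ in the bulb (2.83%). Median centring gave 1 for dp/+ across the brain (0.938%), 3 in the bulb (3.12%) and 1 in the brain stem (0.0201%). It also gave 1 for df/+ contrasts that differ between regions (0.0953%). Brighter genes alone gave 1 for dp/+ in the brain stem (0.0273% of those genes) and 1 for those df/+ contrasts (0.219%). Without the mouse as a replicate block the dp/+ contrasts that differ between regions fell from 2 to 0 (0.0552% of all genes). With the replicate number as a replicate block dp/+ in the brain stem called 1 (0.0251% of all genes), Kcnv1 (limma adjusted p = 0.0456). The other counts stayed within 1.5 times. The causes were not tested.

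Each mouse was left out in turn, where 1 of 2 df/+ mice is assumed to vary like the other groups. Leaving out a mouse gave 70 to 75 members that differ between regions (43.5% to 52.3% of all genes). It gave 49 to 55 calls in the bulb (26% to 32.7%) and 47 to 52 in the cortex (21.9% to 28.8%). It gave 57 to 58 in the cerebellum (28.5% to 35.9%) and 37 to 51 in the brain stem (19.4% to 28.4%). For df/+, leaving out a +/+ or dp/+ mouse gave 0 to 1 across the brain (0.0752% to 0.145% of all genes). These fits gave 0 to 1 in the bulb (0.135% to 1.37%) and 0 in the cerebellum (0.0602% to 0.0853%). They gave 0 to 7 in the brain stem (0.0602% to 0.522%) and 0 to 6 contrasts that differ between regions (0.01% to 0.351%). Fits without a df/+ mouse leave 1 df/+ sample per region and are left out of these df/+ ranges. For dp/+ leaving out each mouse gave 0 to 2 across the brain (0.0552% to 3.78% of all genes). In the bulb it gave 0 to 3 (0.281% to 2.6%). It gave 1 to 5 in the cerebellum (0.0301% to 7.02%) and 0 to 5 in the brain stem (0% to 0.171%). It gave 0 to 7 contrasts that differ between regions (0% to 0.863%). In both lesions it gave 0 to 0 in the cortex, as it did for all slopes.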
